A study of Mus musculus with 12 samples.

Results

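The genes described here are those of cholesterol synthesis and of fatty acid synthesis (lipogenesis), 31 genes chosen by name. Of these, 27 had a probe set that named them alone, 1 probe set each, out of 21408 genes so named on the array. The other 4, Acat2, Idi1, Acss2 and Scd2, are not analysed here. Cells make cholesterol from acetyl-CoA through mevalonate, squalene and lanosterol, and make fatty acids from the same acetyl-CoA. Both routes are switched on by the SREBP transcription factors, which Scap escorts out of the endoplasmic reticulum when sterols are low and which the Insig proteins hold back when sterols are plentiful. In the small intestine, sterol made by the epithelium and sterol absorbed from food and bile feed the same pool of the enterocyte.

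RNA came from the whole small intestine of wild type BALB/c mice that had been irradiated and given bone marrow and T cells of a C57BL/6N donor, a model of acute graft-versus-host disease. Treated mice were injected intraperitoneally every day with tauroursodeoxycholic acid (TUDCA), a taurine-conjugated bile acid, at 200 mg/kg, and control mice with vehicle, both in 200 µl. Tissue was taken on day 14, and each group had 6 arrays. All mice of both groups had been transplanted, and age and sex are not given in the sources used here. Array values are log2 expression values. Sample numbers in the labels fall into a low range (2 TUDCA and 4 vehicle arrays) and a high range (4 TUDCA and 2 vehicle arrays), and every difference below was estimated within these ranges. The labels' description field names reticular cells as the source. The brush border protein gene Vil1 averaged 12.1 under TUDCA and 12.2 under vehicle. Together the 14 enterocyte markers averaged from 10.80 to 11.11 on TUDCA arrays and from 10.88 to 11.21 on vehicle arrays. Single enterocyte markers averaged from 5.26 to 13.5 over all arrays. Fabp1 (5.15 under TUDCA, 5.53 under vehicle) and Lct (5.17 and 5.34) lay below the median of all values, 5.93. The 6 reticular cell markers averaged 6.37 to 6.75 on TUDCA arrays and 6.20 to 6.66 on vehicle arrays.

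Whether TUDCA changed the intestinal expression of the genes that make cholesterol and fatty acids was asked by comparing the groups. Insig2, which encodes one of the proteins that retain SREBPs, was lower in the intestine of TUDCA mice, with a log2 difference of −0.63 ± 0.10 (SE, 6 arrays each). Msmo1, the methylsterol monooxygenase that starts removal of methyl groups from lanosterol products, was higher, with a log2 difference of 0.30 ± 0.07 (SE). Most of the other cholesterol enzymes had small positive differences that did not pass the test. The fatty acid enzymes showed no called difference, and the level of several varied widely among arrays of the same group.

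In counts, 1 of the 27 genes was higher and 1 lower with TUDCA at an adjusted p under 0.05 in limma. Over all 23991 probe sets the same rule called 1.00% higher and 1.52% lower, or 2.52% in either direction. At an unadjusted p under 0.05, 8 of the 27 were higher and 1 lower, against 7.24% higher and 6.84% lower over all probe sets. A difference above 0 was found for 18 of the 27, against 53.3% of all probe sets. The median difference of the 27 genes was 0.09 and that of all probe sets was 0.01 on the log2 scale. The members' median was 0.04 with no number range term. All 27 genes had mean levels above the table's median, so none was near the floor of the arrays.

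**Figure D1:**
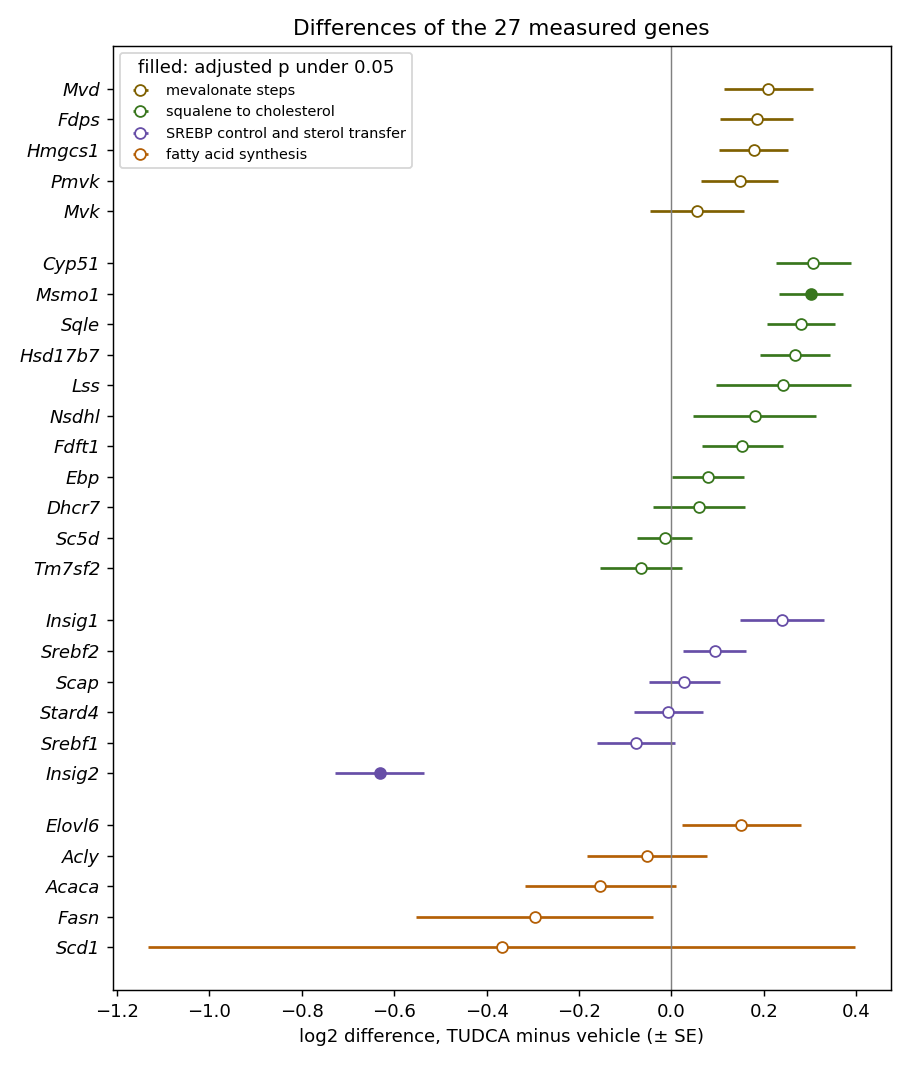
Points give the log2 difference, TUDCA minus vehicle, of each of the 27 genes with its standard error (horizontal axis), grouped by role, and filled points passed an adjusted p of 0.05. Insig2 at −0.63 and Msmo1 at 0.30 are the filled points, most enzymes of cholesterol synthesis lie right of 0, and Scd1 has the widest error.

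Promoter sequence of 5 genes is shown because these are the genes with the called differences (Insig2 and Msmo1), 2 further sterol enzymes with differences of about the same size (Cyp51 and Hsd17b7) and the only member whose window holds the SREBP site searched (Hmgcs1). Each line gives the 250 bases before the annotated start from RefSeq (GRCm38.p6), read 5′ to 3′ on the gene's strand. Capitals mark CCAAT boxes on either strand (CCAAT or ATTGG), the recognition sequence of the factor NF-Y, which is known to act beside SREBPs, and in Hmgcs1 also the SREBP site TCACNCCAC.
Insig2 promoter (chr1:121332590-121332839, minus strand): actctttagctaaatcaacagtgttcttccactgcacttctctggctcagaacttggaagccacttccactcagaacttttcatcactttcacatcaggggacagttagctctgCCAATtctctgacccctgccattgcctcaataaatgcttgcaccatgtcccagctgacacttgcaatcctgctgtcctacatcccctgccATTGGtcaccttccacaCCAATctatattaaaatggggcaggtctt
Msmo1 promoter (chr8:64733579-64733828, minus strand): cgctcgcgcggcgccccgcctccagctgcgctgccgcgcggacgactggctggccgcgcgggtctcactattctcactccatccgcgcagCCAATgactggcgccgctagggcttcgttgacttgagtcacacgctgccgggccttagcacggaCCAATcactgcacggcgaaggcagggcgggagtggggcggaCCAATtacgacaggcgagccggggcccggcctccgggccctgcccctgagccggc
Cyp51 promoter (chr5:4104698-4104947, minus strand): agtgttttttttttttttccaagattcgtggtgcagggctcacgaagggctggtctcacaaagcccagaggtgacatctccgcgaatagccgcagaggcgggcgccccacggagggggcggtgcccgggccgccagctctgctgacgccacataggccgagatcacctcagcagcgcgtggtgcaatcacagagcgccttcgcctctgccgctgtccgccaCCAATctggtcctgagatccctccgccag
Hsd17b7 promoter (chr1:169969206-169969455, minus strand): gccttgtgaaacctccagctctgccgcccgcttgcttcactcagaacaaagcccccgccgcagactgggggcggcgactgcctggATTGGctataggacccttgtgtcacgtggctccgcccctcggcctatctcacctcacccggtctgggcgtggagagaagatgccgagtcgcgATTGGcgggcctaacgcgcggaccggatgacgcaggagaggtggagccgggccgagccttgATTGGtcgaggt
Hmgcs1 promoter (chr13:119690101-119690350, plus strand): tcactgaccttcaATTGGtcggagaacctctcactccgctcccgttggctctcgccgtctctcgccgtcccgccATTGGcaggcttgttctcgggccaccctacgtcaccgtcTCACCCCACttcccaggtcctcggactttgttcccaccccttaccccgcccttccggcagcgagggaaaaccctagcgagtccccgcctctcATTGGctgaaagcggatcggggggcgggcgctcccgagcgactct

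RefSeq windows were available for 22 of the 27 genes. Fdps, Fdft1, Sqle, Scd1 and Stard4 had none, so Sqle, with a difference of 0.28, is not among the sequences shown. CCAAT on either strand was present for 18 of these 22 genes (81.8%), against 37.5% of 27025 genes with a window. All 13 cholesterol enzymes with a window held it, as did 4 of 5 control genes and 1 of 4 fatty acid enzymes, Fasn. The GC box GGGCGG, also searched on both strands, was present for 18 of 22 genes (81.8%) against 35.4% of all, and no match of it overlapped a CCAAT match. TCACNCCAC was found for 1 of 22 genes, 4.55% against 1.22% of all, in Hmgcs1 with its first base 137 bases before the start. The E-box form TCACGTGA was found for none of the 22 and for 0.907% of all genes. Insig2 has 3 annotated starts, and the window shown, that of the most upstream start, held 3 CCAAT boxes while the other 2 held none. A match is a description of these letters only. The expression values do not tell the starts apart.

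The regulators of the pathway are described first. Insig2 values under TUDCA had a lowest of 8.26, a median of 8.47 and a highest of 8.66, and under vehicle a lowest of 8.94, a median of 8.996 and a highest of 9.39. Every TUDCA array lay below every vehicle array. The difference was −0.63 ± 0.10 (SE; 95% interval −0.84 to −0.43; adjusted p = 0.0031 in limma), or 0.646 times the vehicle level. Within the number ranges it was −0.68 in the low and −0.59 in the high range. In each of the 12 fits that omit 1 array Insig2 was still called (adjusted p up to 0.0213 in limma). The call ended in the high range alone, with 4 TUDCA and 2 vehicle arrays (−0.59, adjusted p = 0.195 in limma), where 3 of all probe sets were called lower.

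Insig1, the paralog that is itself a classical SREBP target, had the opposite sign. Its values were 10.54 at the lowest, 10.82 at the median and 10.98 at the highest under TUDCA, against 10.41, 10.55 and 10.92 under vehicle. The groups overlapped, although each TUDCA array was above the vehicle mean of its own number range. The difference of Insig1 was 0.24 ± 0.09 (SE) and did not pass (adjusted p = 0.231 in limma).

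Srebf2, which encodes the SREBP that mainly drives cholesterol synthesis, averaged 9.63 ± 0.11 under TUDCA and 9.59 ± 0.15 under vehicle (SD, n = 6 each), with a difference of 0.09 ± 0.07 (SE). Srebf1, which encodes the forms that mainly drive lipogenesis, averaged 7.42 ± 0.13 under TUDCA and 7.56 ± 0.20 under vehicle (SD, n = 6 each), with a difference of −0.08 ± 0.08 (SE). Neither passed the test. The 95% intervals, −0.05 to 0.24 for Srebf2 and −0.26 to 0.10 for Srebf1, bound what these arrays leave possible. The escort gene Scap was at 0.03 ± 0.08 (SE) and Stard4, a sterol transfer protein, at −0.01 ± 0.08 (SE). These values are of transcripts and do not report how much SREBP protein was processed.

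**Figure D2:**
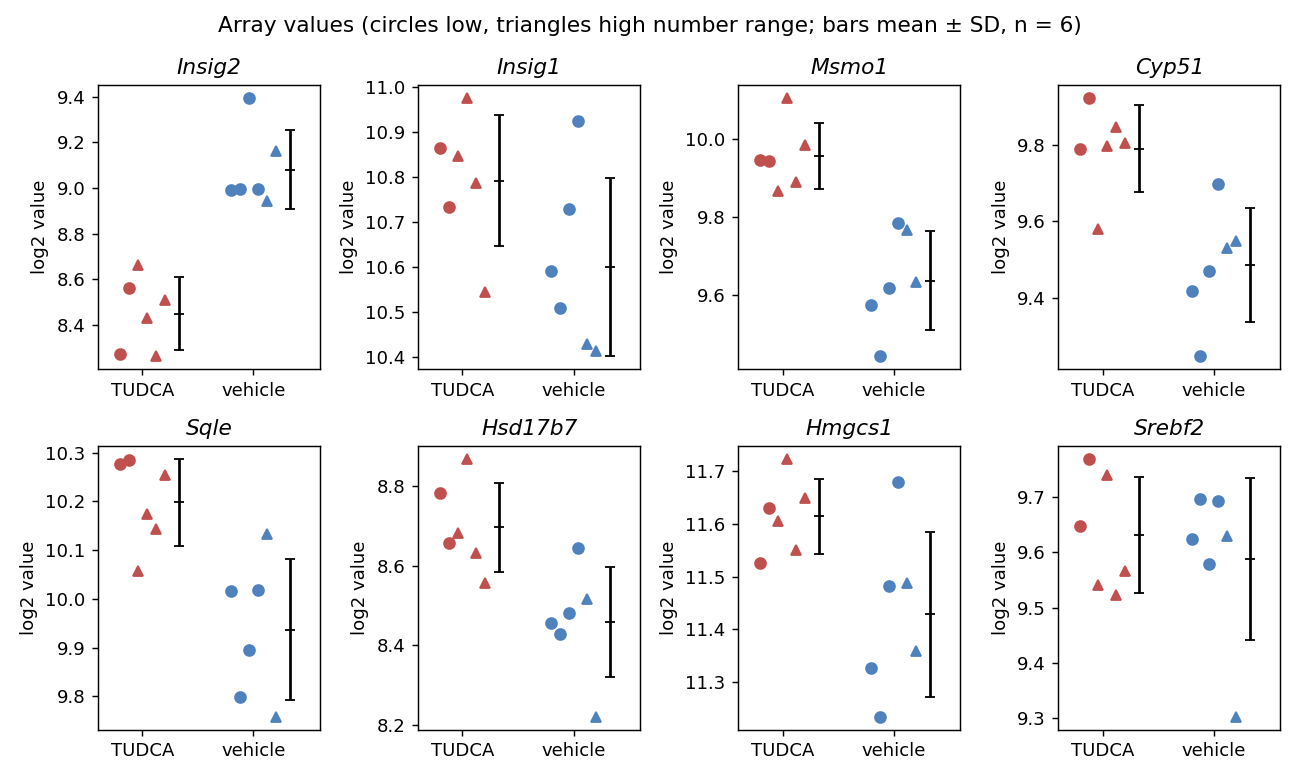
Log2 values of 8 genes on each array, TUDCA left and vehicle right in each panel, with circles for the low and triangles for the high number range and bars for the mean ± SD (n = 6). The groups are separate for Insig2 (8.26 to 8.66 under TUDCA, 8.94 to 9.39 under vehicle) and Msmo1 (9.87 to 10.11 under TUDCA, 9.44 to 9.78 under vehicle) and overlap in the other panels.

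Of the 5 measured genes of the mevalonate steps all had differences above 0, from 0.05 to 0.21, and none passed the test. Hmgcs1, the cytosolic HMG-CoA synthase, ranged from 11.53 to 11.72 with a median of 11.62 under TUDCA, and from 11.23 to 11.68 with a median of 11.42 under vehicle. Its difference was 0.18 ± 0.07 (SE, adjusted p = 0.288 in limma), and all 6 TUDCA arrays lay above the vehicle mean of their number range. The farnesyl diphosphate synthase gene Fdps was at 0.18 ± 0.08 (SE) and Mvd, the mevalonate diphosphate decarboxylase, at 0.21 ± 0.10 (SE). The phosphomevalonate kinase gene Pmvk was at 0.15 ± 0.08 (SE) and the mevalonate kinase gene Mvk at 0.05 ± 0.10 (SE). For Mvd the low range gave 0.43 and the high range −0.01. The difference between ranges had an unadjusted p of 0.0157 and an adjusted p of 0.582 in limma's interaction term, a term that called 0 of 23991 probe sets (7.68% at an unadjusted p under 0.05).

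From squalene to cholesterol, 11 of 11 enzymes were measured, 9 with a difference above 0. Msmo1 values under TUDCA had a lowest of 9.87, a median of 9.95 and a highest of 10.11, and under vehicle a lowest of 9.44, a median of 9.62 and a highest of 9.78. The groups did not overlap, a pattern found for 2 of the 27 genes and 1.98% of all probe sets. The Msmo1 difference was 0.30 ± 0.07 (SE; 95% interval 0.15 to 0.45; adjusted p = 0.0319 in limma), or 1.23 times the vehicle level. The call ended without TUDCA replicate 1, 2 or 4 and without vehicle replicate 1, 2, 3 or 6, with adjusted p from 0.0528 to 0.116 in limma. In all 12 fits that omit 1 array the difference lay between 0.27 and 0.34. The call also ended in the low and high ranges alone (0.34 and 0.26, adjusted p = 0.142 and 0.442 in limma) and with eBayes without trend (adjusted p = 0.0618). It held in 15 of 26 alternatives.

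The 3 enzymes closest to Msmo1 in size of difference did not pass. Cyp51, the lanosterol demethylase, which acts upstream of Msmo1, had a lowest of 9.58, a median of 9.80 and a highest of 9.92 under TUDCA, and 9.25, 9.50 and 9.70 under vehicle. Its difference was 0.31 ± 0.08 (SE, adjusted p = 0.0622 in limma). Only TUDCA replicate 3 lay within the range of the vehicle arrays. Sqle, the squalene epoxidase that is a rate-controlling step of the pathway, had a lowest of 10.06, a median of 10.21 and a highest of 10.29 under TUDCA, and 9.76, 9.96 and 10.13 under vehicle. The Sqle difference was 0.28 ± 0.07 (SE, adjusted p = 0.0631 in limma). TUDCA replicate 3 was the lowest TUDCA array here too, and it lay below vehicle replicate 5, the highest vehicle array.

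Hsd17b7, the ketoreductase of the complex in which Msmo1 acts, ranged from 8.56 to 8.87 with a median of 8.67 under TUDCA and from 8.22 to 8.64 with a median of 8.47 under vehicle. Its difference was 0.27 ± 0.08 (SE, adjusted p = 0.0895 in limma). For Cyp51, Sqle and Hsd17b7 alike, each of the 6 TUDCA arrays exceeded the mean of the vehicle arrays in its range. Cyp51 and Sqle passed the threshold when probe sets below the median level were left out (adjusted p = 0.0388 and 0.0385 in limma), and all 3 passed after renewed quantile normalisation (adjusted p from 0.0283 to 0.045). Over all 26 alternatives the adjusted p ran from 0.0253 to 0.514 for Cyp51, from 0.00781 to 0.596 for Sqle and from 0.0258 to 0.445 for Hsd17b7.

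Other enzymes of this stretch had less even values. Lss, the lanosterol synthase, averaged 8.21 ± 0.26 under TUDCA and 7.996 ± 0.29 under vehicle (SD, n = 6 each), with a difference of 0.24 ± 0.15 (SE). Nsdhl, the dehydrogenase of the same demethylation complex as Msmo1, was at 0.18 ± 0.13 (SE) and the squalene synthase gene Fdft1 at 0.15 ± 0.09 (SE). For Lss and Nsdhl the differences were 0.50 and 0.36 in the low range but −0.01 and −0.0022 in the high range. The other 4 had the smallest differences, with 0.08 for the sterol isomerase gene Ebp, 0.06 for Dhcr7, which catalyses a final reduction to cholesterol, −0.01 for the desaturase gene Sc5d and −0.07 for the sterol reductase gene Tm7sf2. All 16 enzymes of cholesterol synthesis together had a median difference of 0.18. Of them 14 were above 0, against 53.3% of all probe sets. At an unadjusted p under 0.05 in limma 7 were higher, against 7.24% of all probe sets. In the high range alone Mvk, Mvd, Lss, Nsdhl, Dhcr7, Sc5d and Tm7sf2 were below 0, and in the low range only Tm7sf2 was.

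Many, but not all, cholesterol enzymes also varied together between arrays of one group. After the treatment and number range had been taken out, the mean pairwise correlation among the 11 enzymes from squalene to cholesterol was 0.40 over the 12 arrays, against 0.00235 among all probe sets. Positive and negative pairs cancel in the value for all probe sets, so it is no baseline for a chosen list. The mean correlation was 0.24 among the 5 mevalonate genes and 0.40 among the 5 fatty acid genes. Acly, Acaca, Fasn and Scd1 correlated at 0.69 to 0.94 with each other. Elovl6 was at −0.62 to Scd1, −0.37 to Fasn, −0.22 to Acaca and 0.05 to Acly, but at 0.91 to Lss. Marker lists had values of 0.47 (adipocyte), 0.49 (myeloid), 0.64 (goblet), 0.73 (T cell) and 0.83 (smooth muscle). Lower values were those of stem and cycling (0.23) and enterocyte markers (0.07). With Msmo1, the correlation was 0.895 for Fdft1, 0.84 for Lss and −0.13 for Insig2. Tm7sf2 ran against 8 of the other 10 enzymes from squalene to cholesterol, with −0.37 to Lss and −0.31 to Msmo1, and was at 0.46 to Ebp and 0.35 to Sc5d. Pmvk was at −0.67 to Hsd17b7 and −0.44 to Nsdhl. These are descriptions of arrays that share tissue composition and normalisation.

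**Figure D3:**
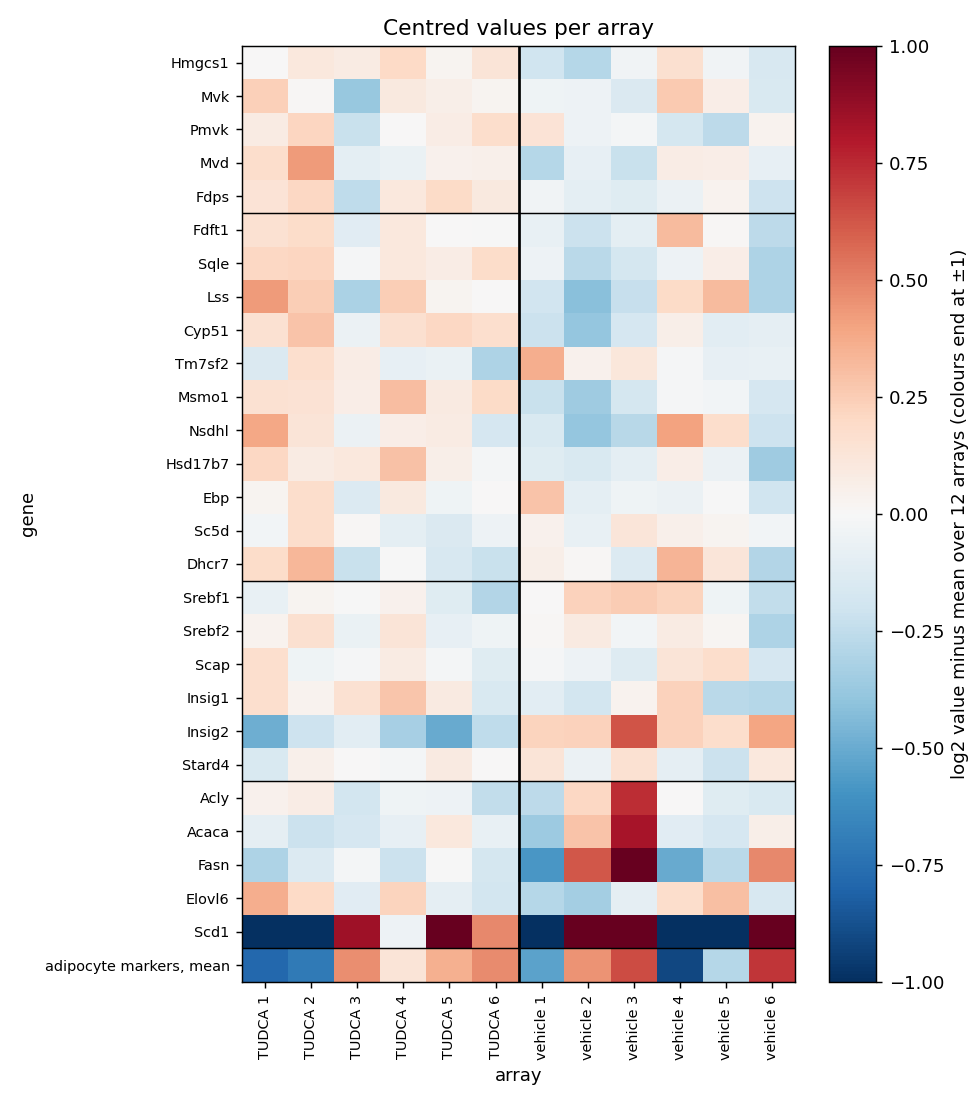
Colours give each gene's log2 value minus its mean over the 12 arrays, with colours ending at ±1, TUDCA arrays left of the line and vehicle arrays right, genes grouped by role, and the mean of 14 adipocyte markers in the last row. Insig2 is below its mean in the 6 TUDCA columns, and Scd1 is low in the 5 columns where the adipocyte row is lowest.

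Fatty acid synthesis gave 0 called genes of 5 measured, and none had an unadjusted p under 0.05 in limma. Fasn, the fatty acid synthase, ranged from 9.54 to 9.85 with a median of 9.69 under TUDCA and from 9.27 to 10.96 with a median of 9.96 under vehicle. Its difference was −0.30 ± 0.26 (SE, adjusted p = 0.674 in limma), and the TUDCA values lay inside the vehicle range. Acaca, the acetyl-CoA carboxylase that commits acetyl-CoA to fatty acids, ranged from 8.23 to 8.55 with a median of 8.36 under TUDCA and from 8.08 to 9.27 with a median of 8.42 under vehicle, a difference of −0.15 ± 0.16 (SE).

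Acly, which makes cytosolic acetyl-CoA from citrate, ranged from 9.32 to 9.65 with a median of 9.53 under TUDCA and from 9.31 to 10.31 with a median of 9.51 under vehicle, a difference of −0.05 ± 0.13 (SE). Elovl6, the elongase of palmitate, was at 0.15 ± 0.13 (SE), with 0.41 in the low and −0.11 in the high range (unadjusted p = 0.0334 and adjusted p = 0.611 for the difference between ranges in limma). Scd1, the stearoyl-CoA desaturase, ranged from 7.88 to 10.19 with a median of 9.37 under TUDCA and from 6.81 to 11.42 with a median of 9.22 under vehicle. Its SD of 1.01 under TUDCA and 1.99 under vehicle was the largest among the 27 genes in each group. The Scd1 difference was −0.37 ± 0.76 (SE), and its 95% interval of −2.00 to 1.27 leaves changes in either direction possible.

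Adipocytes are rich in lipogenic enzymes, and fat lies against the intestine, so adipocyte markers are given beside these values. Of 15 listed markers 14 were measured, and their mean level ran from 5.96 to 7.22 on TUDCA arrays and from 5.83 to 7.46 on vehicle arrays. The adipokine gene Adipoq ranged from 4.95 to 7.22 under TUDCA and from 5.08 to 6.99 under vehicle, and Fabp4, a fatty acid carrier, from 7.35 to 10.01 under TUDCA and from 7.22 to 10.48 under vehicle. Adig, Cidea and Ucp1 stayed between 4.35 and 5.45 on all arrays. Of these 14 markers, 11 had a difference below 0, the median was −0.26, and 3 were lower at an unadjusted p under 0.05 in limma (Lipe at −0.25, Lep at −0.26 and Plin4 at −0.31). None of these 3 passed after adjustment. The list had 1 gene called higher and 0 lower. The gene called higher was Pparg, a nuclear receptor that epithelium also expresses, with a difference of 0.80 ± 0.17 (SE, adjusted p = 0.0248 in limma).

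Scd1 lay under 8 on 5 arrays, TUDCA replicates 1 and 2 and vehicle replicates 1, 4 and 5, and these were the 5 arrays with the lowest adipocyte marker means. With that marker mean as a further term, chosen after the data were seen, the residual SD of Scd1 was 0.305, against 1.59 without it. The residual SD of Fasn was 0.24 with the term and 0.523 without it, and that of Acaca was 0.207 with it and 0.325 without it. With the term the differences were 0.37 ± 0.15 (SE) for Scd1 and −0.07 ± 0.12 (SE) for Fasn (adjusted p = 0.276 and 0.857 in limma, within 0.276 to 0.993 and 0.386 to 0.893 over all alternatives). Insig2 and Msmo1 stayed past the threshold with it, at −0.58 and 0.27 (adjusted p = 0.00343 and 0.0337 in limma). Over all 26 alternatives, adjusted p ran from 0.000874 to 0.195 for Insig2 and from 0.0115 to 0.442 for Msmo1. The marker mean includes Pparg, and the part of adipocytes in the values of any of these genes was not tested.

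**Figure D4:**
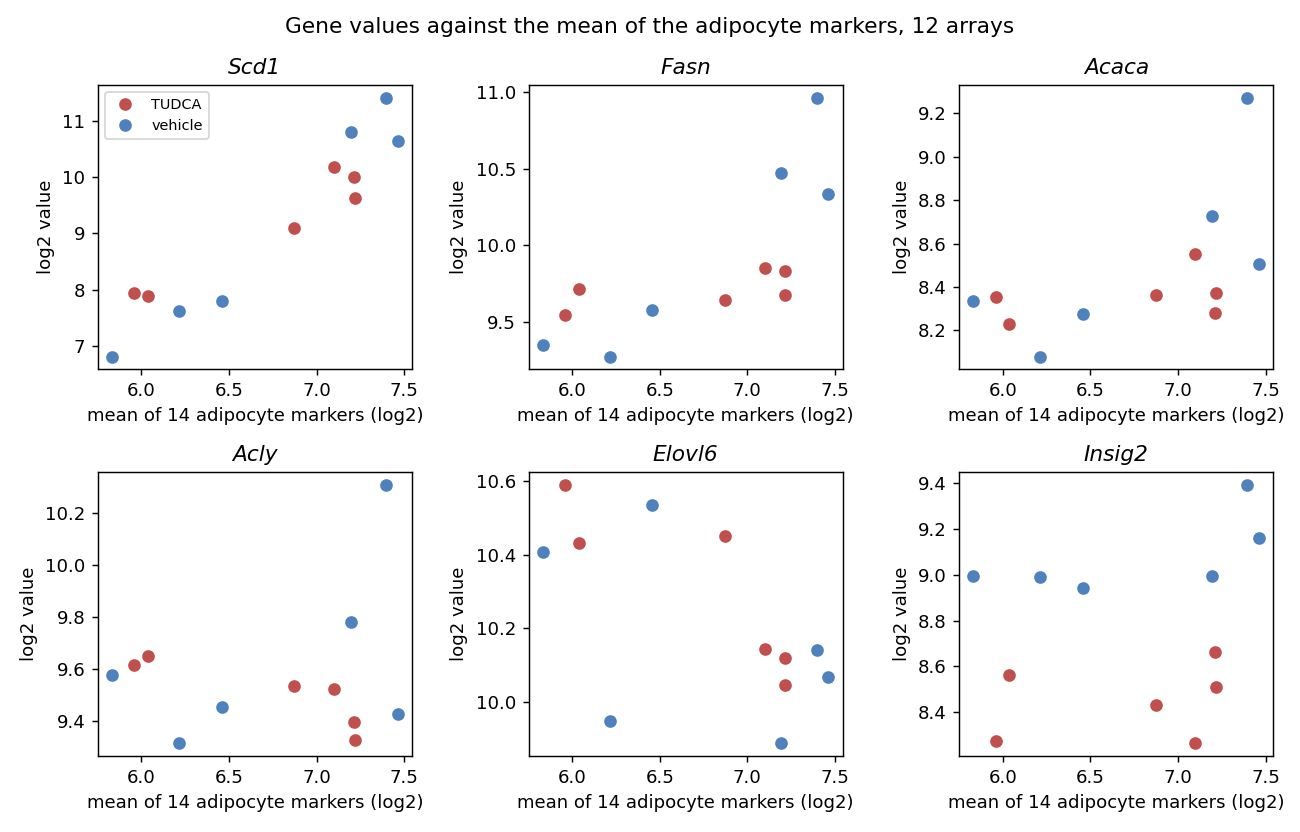
Each point is 1 of 12 arrays, with the mean log2 level of 14 adipocyte markers on the horizontal axis and the log2 value of the named gene on the vertical axis. Scd1 is higher on arrays with a higher marker mean in both groups (7.88 to 10.19 under TUDCA, 6.81 to 11.42 under vehicle), Fasn and Acaca are highest in vehicle replicate 3, and all TUDCA points of Insig2 lie below all vehicle points.

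The RNA is of whole tissue, so fewer cells of a type and less RNA per cell cannot be told apart. Markers of other cells moved with the groups too. Of 10 T cell markers 6 were called lower with TUDCA and 0 higher. Of 14 enterocyte markers 2 were called lower and 0 higher, and of 9 goblet cell markers 3 were called higher and 0 lower. Among the enterocyte markers 10 differences were below 0 and 4 above (median −0.12). At an unadjusted p under 0.05 in limma, 7 of them were lower and 0 higher. The T cell markers had 10 differences below 0 (median −0.80), and the goblet cell markers 8 above 0 and 1 below (median 0.27). Mean levels of these lists ran from 5.85 to 7.34 on TUDCA arrays and 7.21 to 7.97 on vehicle arrays for T cells, with the enterocyte values as given above. Those for goblet cells ran from 10.93 to 11.33 under TUDCA and 10.45 to 11.01 under vehicle. The 11 stem and cycling cell markers had 0 calls, 3 at an unadjusted p under 0.05 in limma, and differences that were all above 0 (median 0.12). Of 7 smooth muscle markers all had a difference below 0 (median −0.11, 2 at an unadjusted p under 0.05 and 0 called in limma), with list means from 10.22 to 10.69 under TUDCA and from 10.04 to 10.79 under vehicle. Of 10 myeloid markers 9 had a difference below 0 (median −0.23, 2 lower and 1 higher at an unadjusted p under 0.05 and 0 called in limma), with list means from 7.55 to 8.04 under TUDCA and from 7.91 to 8.34 under vehicle. Of 8 hepatocyte markers 1 was called higher, the transthyretin gene Ttr at 0.38 ± 0.09 (SE, adjusted p = 0.0319 in limma), with list means from 6.16 to 7.04 under TUDCA and from 6.11 to 6.66 under vehicle. The part of these lists in the values of Insig2 and of the cholesterol enzymes was not tested.

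Other genes of the 2 pathways were taken from lists chosen by function. Of 18 measured further genes listed under sterol synthesis and SREBP processing 0 passed, and their median was 0.09. At an unadjusted p under 0.05 in limma, 3 were higher and 2 lower. Tmem97, a sterol-responsive membrane protein gene, was at 0.46 ± 0.12 (SE, adjusted p = 0.0631 in limma) and Acat1, the mitochondrial thiolase, at 0.24 ± 0.07 (SE). Idi2, an isopentenyl diphosphate isomerase gene, was at 0.42 ± 0.19 (SE). Its level was low, with means of 5.17 under TUDCA and 4.80 under vehicle, below the median of all values (5.93). The 2 lower genes were Ergic3 at −0.16 ± 0.07 (SE) and Mbtps1, a gene of SREBP processing, at −0.15 ± 0.07 (SE, adjusted p = 0.342 in limma). Of 40 further genes of fatty acid and glyceride synthesis, 1 was called higher and 0 lower (2.5%), against 2.52% of all probe sets. Their median was 0.04, with 24 differences above 0 and 16 below. In limma 6 were higher and 0 lower at an unadjusted p under 0.05, against 7.24% and 6.84% of all probe sets. Elovl1, an elongase of long saturated fatty acids, ranged from 8.77 to 9.41 with a median of 9.12 under TUDCA and from 8.66 to 8.97 with a median of 8.81 under vehicle. Its difference was 0.36 ± 0.08 (SE, adjusted p = 0.0347 in limma), and the call held in 4 of 12 fits that omit 1 array. It ended without TUDCA replicate 1, 2, 4 or 5 and without vehicle replicate 1, 2, 3 or 6 (adjusted p up to 0.165). It also ended with no number range term (0.28, adjusted p = 0.158 in limma), in the low and high ranges alone (adjusted p = 0.0651 and 0.514) and with eBayes without trend (adjusted p = 0.0579), and it held in 13 of 26 alternatives. The acyltransferase gene Agpat2 (0.19 ± 0.05 SE), Mid1ip1, whose product activates acetyl-CoA carboxylase (0.28 ± 0.08 SE), the elongation enzyme gene Hsd17b12 (0.21 ± 0.07 SE) and the NADPH-producing Pgd (0.17 ± 0.07 SE) did not pass.

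Genes that import, export, oxidise or sense sterol are given for comparison. Of 18 measured, 5 were called lower with TUDCA and 0 higher, and the median difference of the list was −0.04. The exporter subunits Abcg8 and Abcg5, which return sterol to the gut lumen, were at −0.79 ± 0.07 and −0.53 ± 0.08 (SE; adjusted p = 9.05e-05 and 0.0037 in limma), and the uptake transporter Npc1l1 was at −0.77 ± 0.14 (SE, adjusted p = 0.00952). Cyp27a1, a sterol hydroxylase, had a lowest of 6.70, a median of 7.03 and a highest of 7.25 under TUDCA, and 7.53, 7.87 and 8.17 under vehicle. The groups did not overlap for Abcg8, Abcg5 or Cyp27a1, whose difference was −0.74 ± 0.10 (SE, adjusted p = 0.00171 in limma). Mylip, a ubiquitin ligase of lipoprotein receptors, was at −0.45 ± 0.11 (SE, adjusted p = 0.0357). The next 4 by p did not pass, with −0.14 ± 0.08 (SE) for Stard3, 0.17 ± 0.11 (SE) for Ch25h, 0.10 ± 0.07 (SE) for Nr1h3 and 0.12 ± 0.09 (SE) for Lipa. Without single arrays, Abcg8, Abcg5 and Cyp27a1 kept their calls in 12 of 12 fits, Npc1l1 in 11 and Mylip in 3 (adjusted p up to 0.0572 for Npc1l1, without TUDCA replicate 1, and up to 0.156 for Mylip). The call of Mylip ended without any 1 of TUDCA replicates 1, 2, 4, 5 and 6 or vehicle replicates 1, 2, 3 and 6. Of all 26 alternatives, Abcg8, Abcg5 and Cyp27a1 kept their calls in 25 each, Npc1l1 in 24 and Mylip in 13. The highest adjusted p in limma was 0.0577 for Abcg8, 0.301 for Abcg5, 0.237 for Cyp27a1, 0.406 for Npc1l1 and 0.445 for Mylip.

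**Figure D5:**
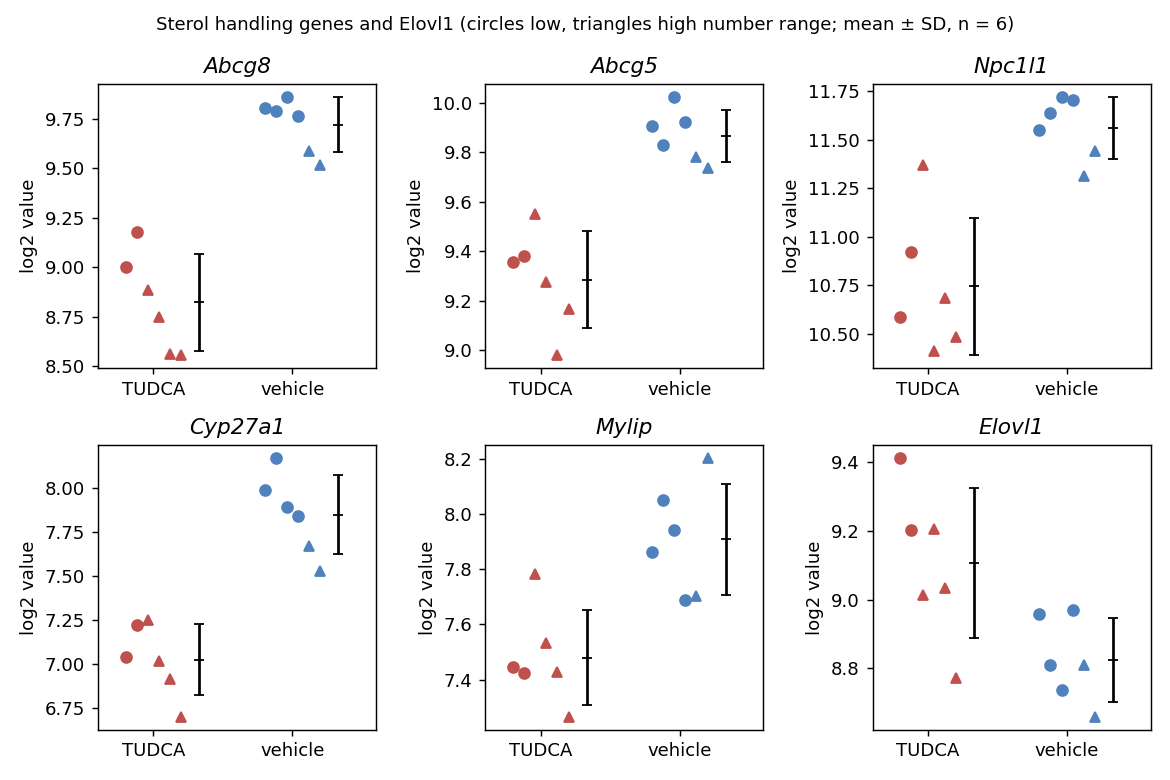
Log2 values per array of 5 sterol handling genes and Elovl1, TUDCA left and vehicle right in each panel, circles for the low and triangles for the high number range, bars for the mean ± SD (n = 6). Abcg8, Abcg5 and Cyp27a1 are separate between the groups (Cyp27a1 from 6.70 to 7.25 under TUDCA and from 7.53 to 8.17 under vehicle), and Npc1l1, Mylip and Elovl1 overlap.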

How the data were processed

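Small intestinal RNA of 12 samples was biotin-labelled and hybridised to Affymetrix gene arrays, per the labels' protocols. The deposited table holds log2 values for each probe set on each array. The tools oligo and RMA appear in the submitters' processing notes, and RMA corrects background, equalises the arrays' distributions and summarises probes. Versions and probe set filters are not given in the sources used here, and no detection calls were used here. Array medians lay between 5.90 and 5.95 and correlations between arrays between 0.984 and 0.993. Of 23991 probe sets, 21557 named 1 gene in the platform annotation.

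The linear model (limma 3.58.1, R 4.3.3, lmFit and eBayes with a trend) covered all probe sets and had treatment and number range as terms, two-sided tests and Benjamini-Hochberg adjustment over all probe sets at a threshold of 0.05. The fit was checked on simulated data, with noise independent between probe sets and planted changes larger than the Msmo1 and Elovl1 differences. That check does not show how well differences of their size are found. For a gene with several probe sets the one with the highest mean was used. Members and lists were chosen with earlier results of these data known. Named with values were members past the threshold, the 12 with the smallest p, a fixed set, and of each pathway list the called genes and up to 4 more with the smallest p. Mbtps1 was named in addition. The labels number replicates without saying that each is a separate animal, so p-values measure only the spread between these samples, which may be technical. The number of arrays limits precision. The alternatives were other terms and subsets of arrays, normalisations, variance models, filters and thresholds.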

Additional observations from a re-analysis of the deposited data

Results flagged for a closer look

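Among 54 sets of 6 arrays (27 genes in 2 groups), 3 had an array far from the others by Dixon's test, and chance flags about 1 in 20. Mvk was 6.93 in TUDCA replicate 3, and the other TUDCA arrays lay between 7.32 and 7.55. Fdps was 9.29 in the same TUDCA replicate 3, with the other TUDCA arrays from 9.65 to 9.76. Srebf2 was 9.30 in vehicle replicate 6, with the other vehicle arrays from 9.58 to 9.70. Without TUDCA replicate 3, Fdps passed the threshold (0.23, adjusted p = 0.0459 in limma), against adjusted p up to 0.822 over its alternatives.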

How the results depend on the processing

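With TUDCA, the probe sets called higher numbered 241 and the probe sets called lower 364, with 1 member gene each way. Of the member genes, 1 was called lower under every alternative except the high number range alone, which called 0 lower and 0 higher (6 probe sets higher, 3 lower). Member genes called higher numbered 2 with no number range term, 0 in the low range alone, 3 among probe sets at or above the median level, 4 after quantile normalisation again, 0 with eBayes without trend, 4 with array weights (436 probe sets higher) and 4 at a threshold of 0.1 (429 higher). Without single arrays they numbered 0 to 4, with 91 to 292 probe sets higher and 151 to 417 lower. The median difference of the member genes (0.09) was 0.0436 with no number range term and with the replicate block without it, 0.050 in the high range alone, 0.128 with the replicate block with the range, and 0.0426 to 0.146 without single arrays. The replicate block with the number range gave 85 probe sets higher and 190 lower, 0 member genes higher and 1 lower, and adjusted p of 0.0763 for Msmo1 and 0.122 for Elovl1 in limma, which ends both calls; without the range, Mylip was at 0.0530. Replicate numbers were not taken as pairing, since not every same-numbered pair of deviations correlated above 0.1 (−0.0596 to 0.261). As a hint from the data and not the design, 7 of 12 arrays, not all, correlated best with their own number. Both measures used deviations that still held the number range, which same-numbered arrays share except for replicates 3 and 4. With the range taken out, the correlations were −0.153, −0.0517, 0.125, 0.244, −0.208 and −0.0124 for replicates 1 to 6 in order. Differences changed sign for genes that were not called: Dhcr7 to −0.034 with no range term and with the replicate block without it; Stard4 to 0.0055 and Acly to 0.035 with the replicate block with the range; Sc5d to 0.038 in the low range. In the high range they were −0.0050 for Mvk, −0.011 for Mvd, −0.015 for Lss, −0.0022 for Nsdhl, −0.072 for Dhcr7, 0.050 for Srebf1, −0.023 for Scap, 0.073 for Stard4, 0.0054 for Acly, 0.0025 for Acaca, −0.11 for Elovl6 and 0.51 for Scd1. Quantile normalisation gave Sc5d 0.013 and Stard4 0.0011. The adipocyte marker term, chosen after seeing the data, gave Mvk −0.00022, Dhcr7 −0.017, Scap −0.020, Stard4 0.027, Acly 0.021 and Scd1 0.37. Without single arrays, Mvk ran from −0.0023 to 0.111, Tm7sf2 from −0.113 to 0.0045, Sc5d from −0.067 to 0.0107, Scap from −0.025 to 0.105, Stard4 from −0.086 to 0.051, Acly from −0.119 to 0.039 and Scd1 from −1.12 to 0.035. The cause was not tested, except that single ranges and omitted arrays leave fewer samples.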

Other observations

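In the fit with the adipocyte marker mean as a further term, slopes of the 27 genes on that mean differed in sign (log2 units per log2 unit). Scd1 had a slope of 2.83, Fasn of 0.86 and Acaca of 0.47. Lss, from squalene to cholesterol, had a slope of −0.42, Nsdhl of −0.41 and Dhcr7 of −0.29, and the elongase gene Elovl6 of −0.32, while Pmvk (0.06) and Tm7sf2 (0.0060) were slightly above 0. The residual SD of Nsdhl was 0.136 with the term and 0.26 without it, and that of Dhcr7 was 0.0882 with it and 0.181 without it. These are values over the 12 arrays with no test of their own.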
